A study of Homo sapiens with 11 samples.

Results

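APAF1 and 8 genes that act with it in the mitochondrial route to cell death were followed across RNA-seq libraries of pancreatic cancer cells given small interfering RNA (siRNA) against MYEOV. The 9 genes are APAF1, CASP9, BCL2L1, MCL1, BAX, BAK1, BID, XIAP and DIABLO. They were taken by symbol from the GENCODE 29 annotation and account for 10 of the 58735 gene rows counted in each library, since DIABLO has a pair of Ensembl identifiers. All 9 genes passed the low-count filter in each comparison through 1 row, and the second DIABLO row, with 0 to 6 counts per library, did not.

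In this route the outer mitochondrial membrane is breached by BAX and BAK1, which BCL2L1 and MCL1 hold back and which BID can switch on after it is cut by caspases. Cytochrome c then leaves the mitochondria and binds APAF1, which assembles into a wheel-shaped complex, the apoptosome, and activates the initiator caspase CASP9. XIAP blocks caspases, and DIABLO, released together with cytochrome c, relieves that block.

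AsPC-1, a pancreatic adenocarcinoma line from ascites, and PANC-1, a line from a pancreatic duct tumour, were each sampled with and without MYEOV siRNA. There were 3 AsPC-1 libraries with MYEOV siRNA, 2 AsPC-1 controls, 3 PANC-1 libraries with MYEOV siRNA and 3 PANC-1 controls, and RNA was taken 48 hours after transfection. AsPC-1 was grown in RPMI medium and PANC-1 in DMEM, both with serum. The labels call the controls WT and untreated while the protocol also lists a negative-control siRNA, so whether the controls were transfected is not settled, and the siRNA itself and transfection cannot be told apart if they were not. Of the pair of MYEOV siRNAs listed, the labels do not say which went into which library. They do not name separate cultures either, so the spread that p-values rest on, that between libraries, may be technical.

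Libraries held 12113093 to 15066456 counts on genes, and 22050 to 24025 genes had a count. Levels are given as CPM, counts scaled for library depth with TMM factors over all 11 libraries. The target was lower in every siRNA library: MYEOV, a gene named for its overexpression in myeloma, stood at 42.9, 50.7 and 48.1 CPM in AsPC-1 with siRNA, against 131 and 129.7 CPM in AsPC-1 controls. In PANC-1 it stood at 37.7, 35.8 and 39.8 CPM with siRNA, against 75.1, 68.6 and 64.4 CPM in controls. All 6 epithelial markers (KRT7, KRT8, KRT18, KRT19, EPCAM, SOX9) averaged at least 1 CPM in each group, although KRT7 lay only between 1.14 and 3.56 CPM, and their sum was 18082 to 18956 CPM in AsPC-1 libraries, against 2143 to 2684 CPM in PANC-1 libraries. KRT8 led that sum, at 10390 to 10806 CPM in AsPC-1 and 912 to 1320 CPM in PANC-1. EPCAM had 938 to 1321 CPM in AsPC-1 but 4.82 to 7.93 CPM in PANC-1. SOX9 went the other way, with 89.9 to 99.3 CPM in AsPC-1 and 157 to 222 CPM in PANC-1. The 3 leukocyte, 3 endothelial and 3 acinar markers all averaged under 1 CPM in each group. Of 4 fibroblast markers 1 passed 1 CPM in each line, and their sum was 105 to 108 CPM in AsPC-1 with siRNA against 296 to 309.8 CPM in its controls, nearly all of it LUM, and 41.2 to 42.8 CPM in PANC-1 with siRNA against 29.6 to 36.4 CPM in its controls, led by COL1A1. The part of these shifts in the results was not tested. Among libraries of a group, PANC-1 control replicate 2 stood furthest from its fellows.

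APAF1 (ENSG00000120868, chr12:98645141-98735433, plus strand, GRCh38), the scaffold of the apoptosome, fell with MYEOV siRNA in both lines, and no other member was called lower in both. In AsPC-1 it was counted at 27.6, 25.4 and 31.4 CPM with siRNA, against 67.8 and 67.2 CPM in controls. In PANC-1 the values were 18.0, 21.2 and 21.4 CPM with siRNA, against 35.7, 37.2 and 36.8 CPM in controls. The siRNA libraries lay below the controls of their line without overlap, and the AsPC-1 siRNA libraries also lay below the PANC-1 controls. APAF1 was left at 41.3% of control in AsPC-1 (log2 fold change -1.28, SE 0.07, 95% interval -1.42 to -1.13; quasi-likelihood test of edgeR with Benjamini-Hochberg adjustment, adjusted p = 3.44e-13). It was left at 55.2% of control in PANC-1 (log2 fold change -0.86, SE 0.08, 95% interval -1.03 to -0.68; edgeR adjusted p = 1.59e-05). In bulk RNA, less APAF1 RNA per cell and fewer cells that express it cannot be told apart. Over 9.48% of their length, annotated APAF1 exons overlap ANKS1B, a protein-coding gene on the opposite strand. The ANKS1B row held 0 counts in AsPC-1, 32 to 41 in PANC-1 with siRNA and 29 to 38 in PANC-1 controls, against 281 to 893 for APAF1 over all libraries.

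**Figure D1:**
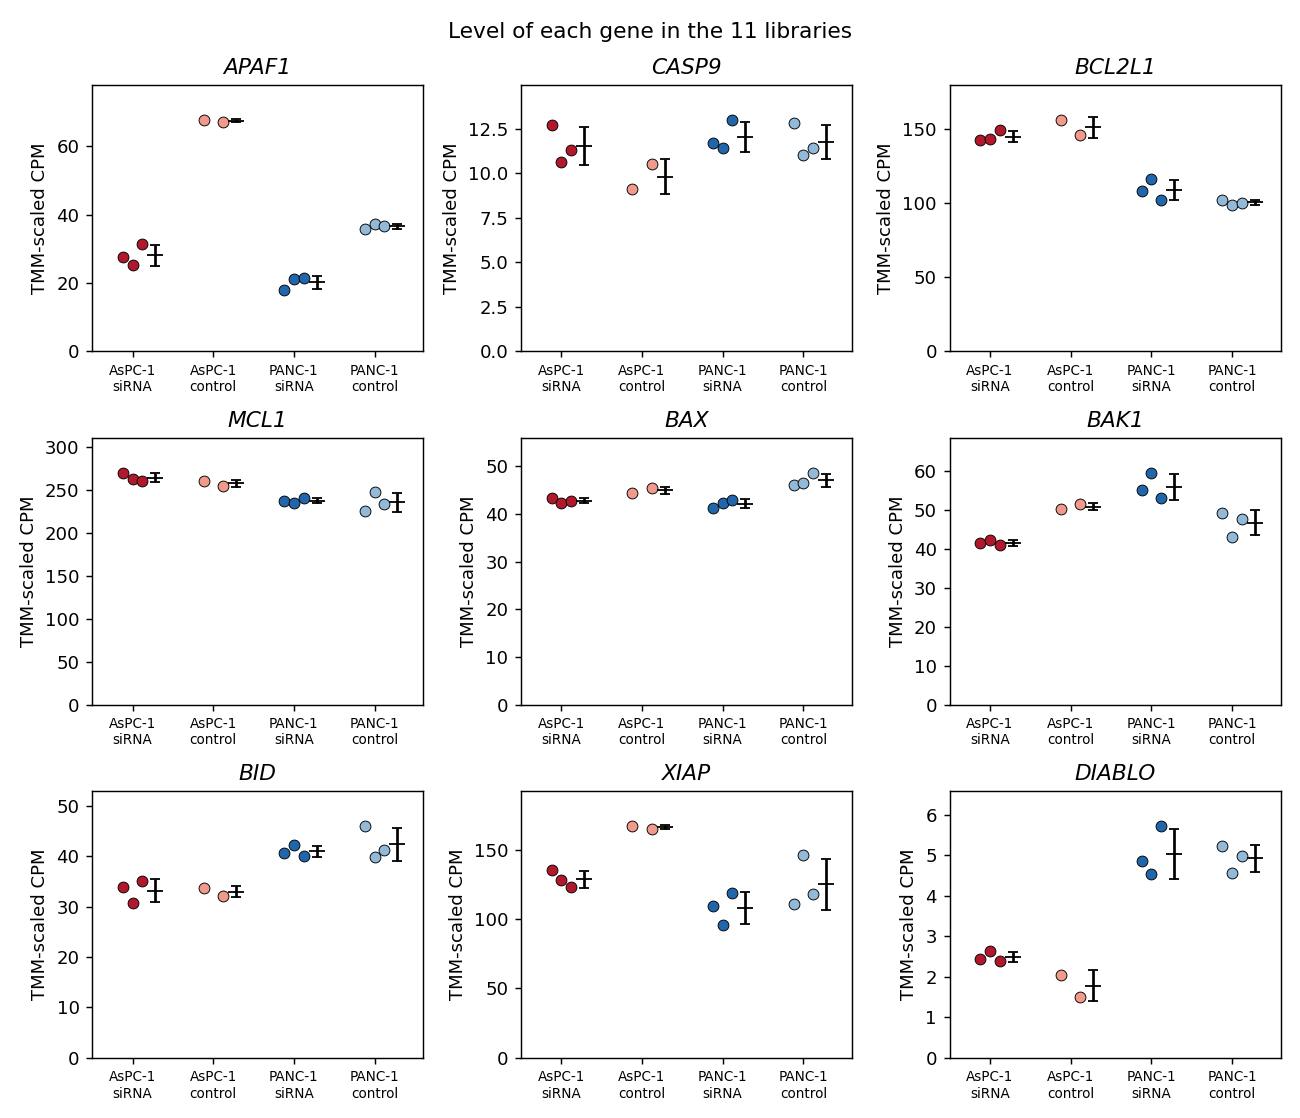
TMM-scaled CPM (vertical axes, from 0) of the 9 genes in each of the 11 libraries, 1 panel per gene; points are libraries, in order of replicate number, and the cross and bar beside them are the group mean and 1 SD. APAF1 sits at 25.4 to 31.4 CPM in AsPC-1 with siRNA and 18.0 to 21.4 CPM in PANC-1 with siRNA, below the controls of each line, while the MCL1 and BID panels are nearly level across siRNA and control libraries of a line.

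Within APAF1 transcripts the 7-base word CTCATGT occurs once in the annotated 3′ UTR, in 4 of 8 coding transcripts. The word was taken up because earlier results of these data had shown it among lowered genes, the siRNA sequences are not in the labels, and a match here is a description only. It was searched on the transcript strand in all annotated 3′ UTRs, together with its 6-base core TCATGT. Among the 9 genes the full word was found in APAF1, and the core without the leading C in XIAP, MCL1 and CASP9, at 2, 2 and 3 sites. The CASP9 sites are not printed below, and neither MCL1 nor CASP9 was called lower in either line. The lines below show these sites for APAF1, XIAP and MCL1, and for BCL2L12, a further gene of the pathway described later, so that their flanks can be compared; capitals mark the word or its core.
APAF1, chr12:98734841-98734847, plus strand: aggggctcatCTCATGTaggcagagta
XIAP, chrX:123908557-123908562, plus strand: tcttaaagttTCATGTgagtttttac
XIAP, chrX:123913783-123913788, plus strand: ttgtgaataaTCATGTgaaatgtttt
MCL1, chr1:150574726-150574731, minus strand: ctctagtgttTCATGTacattctgtg
MCL1, chr1:150575168-150575173, minus strand: cttatttataTCATGTatctctaagg
BCL2L12, chr19:49673781-49673787, plus strand: aagatgacacCTCATGTccctgccctc

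The APAF1 site lies in the long 3′ UTR forms, of 2860 bases or more, and is missing from the shorter ones, of at most 961 bases, which include the annotated principal transcript. Counts per gene do not tell these forms apart. In AsPC-1, 11945 genes that were tested had an annotated 3′ UTR, 14.1% of them held CTCATGT in some transcript, and 35.2% of those genes were called lower, against 13.0% of genes with neither the word nor its core. In PANC-1, 14.2% of 12516 genes held it, and 18.6% of those were called lower, against 2.4% of genes with neither. The core was in 41.4% of the AsPC-1 genes and 41.6% of the PANC-1 genes, the word included, and of genes with the core alone 19.0% were called lower in AsPC-1 and 5.4% in PANC-1. Because the word was taken up from these same libraries, its higher shares are no independent evidence. Genes with and without it were not matched for 3′ UTR length. BCL2L1, BAX, BAK1, BID and DIABLO held neither in their annotated 3′ UTRs.

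Changes of the other members were smaller than that of APAF1 in both lines. In AsPC-1 the edgeR test called 3 of the 9, all lower: APAF1, XIAP and BAK1. That is 33.3%, where the test called 32.9% of the 14304 genes tested and 16.3% of them lower, so the share called was near that of all genes. The median log2 fold change of the 9 was -0.07 and that of all tested genes -0.00. In PANC-1 it called 2 of the 9, APAF1 lower and BAK1 higher, or 22.2%, where 9.08% of 14929 genes were called, 4.16% higher and 4.92% lower. The median was 0.01 for the 9 and -0.00 for all genes. The number of PANC-1 genes called was 1356, but 538, 876 and 863 when siRNA replicate 1, 2 or 3 of PANC-1 was left out.

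XIAP (ENSG00000101966, chrX:123859724-123913979, plus strand), the caspase inhibitor, fell in AsPC-1. It had 135, 128 and 123 CPM in AsPC-1 siRNA libraries, against 167 and 165 CPM in AsPC-1 controls. The groups did not overlap, and the fold was 0.768 (log2 fold change -0.38, SE 0.04; edgeR adjusted p = 1.36e-07). PANC-1 held 109.5, 95.9 and 119 CPM with siRNA, against 111, 146 and 118 CPM in controls. Here the groups overlapped, control replicate 2 stood above all other PANC-1 libraries, and the change did not pass the test (log2 fold change -0.21 with an SE of 0.10; edgeR adjusted p = 0.204). It was -0.09 without control replicate 2 (adjusted p = 0.513) and -0.13 without siRNA replicate 2 (adjusted p = 0.502). Between lines it differed by -0.16 (SE 0.12, 95% interval -0.41 to 0.09; edgeR interaction adjusted p = 0.569), and without PANC-1 control replicate 2 it was -0.30 and was called (adjusted p = 0.0274). Leaving out PANC-1 siRNA replicate 2 made it -0.27 and leaving out PANC-1 control replicate 1 or siRNA replicate 3 made it -0.08, none of them called.

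BAK1 (ENSG00000030110, chr6:33572547-33580293, minus strand), one of the proteins that form pores in the outer mitochondrial membrane, moved in opposite directions in the lines. AsPC-1 libraries had 41.3, 42.3 and 40.9 CPM with siRNA, against 50.1 and 51.4 CPM in controls. PANC-1 libraries had 55.1, 59.4 and 52.9 CPM with siRNA, against 49.2, 43.0 and 47.5 CPM in controls. Neither pair of groups overlapped. The log2 fold change was -0.30 in AsPC-1 (SE 0.06; edgeR adjusted p = 3.70e-04) and 0.26 in PANC-1 (SE 0.07; edgeR adjusted p = 0.0352). The AsPC-1 minus PANC-1 difference of -0.55 passed the interaction test (SE 0.10, 95% interval -0.75 to -0.35; edgeR adjusted p = 0.00188). With replicate number as a block, neither this difference nor the PANC-1 rise was called. The PANC-1 rise was no longer called by edgeR without control replicate 2 (0.21, adjusted p = 0.0549), control replicate 3 (0.28, adjusted p = 0.0788), siRNA replicate 1 (0.27, adjusted p = 0.120) or siRNA replicate 2 (0.22, adjusted p = 0.141), whereas the difference between lines kept its call without any single library (-0.59 to -0.52).

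BAX (ENSG00000087088, chr19:48954815-48961798, plus strand), the partner pore former, did not pass the test in either line. It had 43.4, 42.2 and 42.8 CPM in AsPC-1 with siRNA against 44.4 and 45.5 CPM in controls, and 41.2, 42.3 and 43.0 CPM in PANC-1 with siRNA against 46.0, 46.5 and 48.6 CPM in controls. All siRNA libraries lay under the controls of their line, by little. The log2 fold changes were -0.08 in AsPC-1 (SE 0.06; edgeR adjusted p = 0.341) and -0.16 in PANC-1 (SE 0.06, 95% interval -0.29 to -0.02; edgeR adjusted p = 0.139).

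The inhibitors BCL2L1 and MCL1 differed little between siRNA and control. BCL2L1 (ENSG00000171552, chr20:31664452-31723989, minus strand), which encodes BCL-XL, averaged 145 ± 3.78 CPM in AsPC-1 with siRNA (SD, n = 3) and 151 ± 7.19 CPM in AsPC-1 controls (n = 2). Its log2 fold change was -0.07 in AsPC-1 (SE 0.04; edgeR adjusted p = 0.210) and 0.11 in PANC-1 (SE 0.06; edgeR adjusted p = 0.269), with 108 ± 6.76 CPM with siRNA and 100.4 ± 1.79 CPM in controls of PANC-1 (n = 3 each). The annotation places the antisense gene ABALON over 43% of BCL2L1 exon bases, with 25 to 94 counts per library where BCL2L1 had 1340 to 2052. MCL1 (ENSG00000143384, chr1:150574551-150579738, minus strand) averaged 265 ± 4.83 CPM with siRNA and 258 ± 3.89 CPM in controls of AsPC-1 (SD, n = 3 and 2), and had 238, 235 and 241 CPM with siRNA against 226, 248 and 234 CPM in controls of PANC-1, which overlapped. The 95% intervals of its log2 fold change, -0.05 to 0.10 in AsPC-1 and -0.09 to 0.12 in PANC-1, were among the narrowest of the 9 genes, and neither change was called (edgeR adjusted p = 0.686 and 0.927).

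CASP9, BID and DIABLO were not called in either line. CASP9 (ENSG00000132906, chr1:15490832-15526534, minus strand), the caspase that APAF1 activates, had 12.7, 10.6 and 11.3 CPM in AsPC-1 with siRNA against 9.11 and 10.5 CPM in controls (log2 fold change 0.23, SE 0.13; edgeR adjusted p = 0.177), a value that was 0.12 without AsPC-1 control replicate 1 and 0.34 without replicate 2. In PANC-1 its log2 fold change was 0.03 (SE 0.10; edgeR adjusted p = 0.915). BID (ENSG00000015475, chr22:17734138-17774770, minus strand), which carries the death receptor signal to mitochondria, had log2 fold changes of -0.01 in AsPC-1 (SE 0.08) and -0.05 in PANC-1 (SE 0.07), with edgeR adjusted p = 0.962 and 0.740. DIABLO (ENSG00000184047, chr12:122207663-122226568, minus strand) was counted at only 29, 32 and 29 reads in AsPC-1 with siRNA, against 27 and 17 in its controls, and at 79, 63 and 75 in PANC-1 with siRNA, against 80, 62 and 79 in its controls. Its log2 fold change in AsPC-1, 0.45, had a 95% interval of -0.11 to 1.02 (edgeR adjusted p = 0.226), and a rise as large as the fall of APAF1 in PANC-1 lies inside it. Without AsPC-1 control replicate 1 it was 0.70 and without replicate 2 it was 0.27, neither called. The counted DIABLO row shares 29.6% of its exon bases with the second DIABLO row and 14.3% with B3GNT4, a protein-coding gene on the opposite strand. It shares 16.8% with AC048338.1 on the same strand, which had 0 counts in every library. B3GNT4 had 23 to 28 counts in AsPC-1 with siRNA and 24 to 40 in its controls, about as many as DIABLO, and 11 to 24 in PANC-1 with siRNA and 21 to 24 in its controls. How reads on shared exons were treated is not stated in the labels or notes, so the level of DIABLO and its difference between lines are uncertain.

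**Figure D2:**
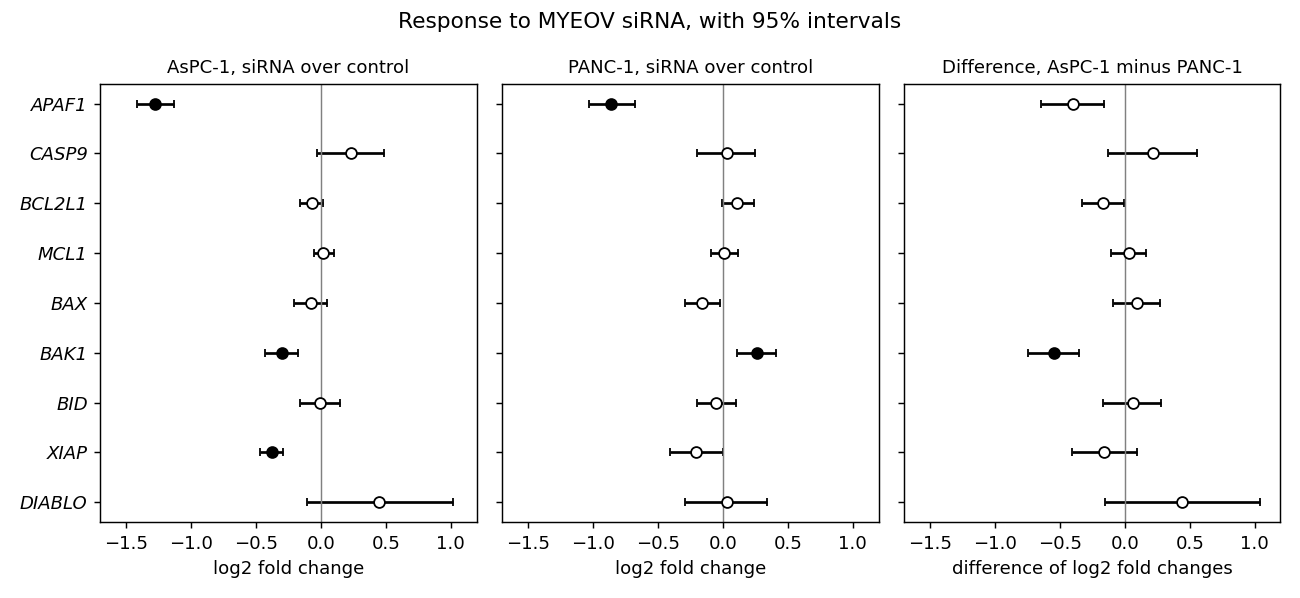
Log2 fold change of each gene for MYEOV siRNA over control in AsPC-1 (left) and PANC-1 (middle), and the AsPC-1 minus PANC-1 difference (right), with 95% intervals as bars; filled points passed an adjusted p of 0.05. APAF1 lies at -1.28 and -0.86, and BAK1 lies on opposite sides of 0 at -0.30 and 0.26.

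The difference between lines was tested for all 9 genes, and 1 was called, BAK1. That is 11.1%, where the interaction test called 4.36% of 16680 genes, 2.07% of them lower. The count over all genes, 727, was 305 and 315 without the first and second AsPC-1 control and 475 without PANC-1 siRNA replicate 1. For APAF1 the AsPC-1 minus PANC-1 difference was -0.40 (SE 0.12, 95% interval -0.65 to -0.16), with an unadjusted p of 0.00278 and an edgeR adjusted p of 0.0580. It was called without AsPC-1 siRNA replicate 3 (-0.49, edgeR adjusted p = 0.0267), PANC-1 control replicate 2 (-0.44, adjusted p = 0.0209) or PANC-1 siRNA replicate 1 (-0.49, adjusted p = 0.0330), and with RLE scaling, either other low-count filter or DESeq2 (adjusted p = 0.0363 to 0.0490). The APAF1 difference was not called when any other library was left out, nor with a replicate block. Over all omissions of 1 library it ran from -0.49 to -0.33. MYEOV itself fell further in AsPC-1, by a difference of -0.59 (SE 0.10; edgeR interaction adjusted p = 0.00153). For the other members the difference ran from -0.17 for BCL2L1 (95% interval -0.33 to -0.01) to 0.44 for DIABLO (-0.15 to 1.04), with edgeR adjusted p between 0.261 and 0.921. The DIABLO value was 0.69 and 0.25 without AsPC-1 control replicate 1 and 2, and that of CASP9, 0.22, was 0.12 without AsPC-1 control replicate 1 and 0.14 without AsPC-1 siRNA replicate 1.

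Control cells of the lines were then compared, which bears on how much of each gene a line carries before MYEOV is lowered; line and culture medium cannot be told apart here. The edgeR test called 6 of the 9 members, 66.7%, where 76.4% of 16182 genes were called, 36.1% higher and 40.3% lower in AsPC-1. The median log2 fold change of AsPC-1 over PANC-1 was 0.15 for the 9 and -0.06 for all genes. APAF1 was higher in AsPC-1 controls, at 67.5 ± 0.434 CPM (SD, n = 2) against 36.5 ± 0.784 CPM in PANC-1 controls (n = 3), a fold of 1.88 (log2 fold change 0.91 with an SE of 0.07; edgeR adjusted p = 2.27e-08). BCL2L1 was 1.53-fold higher (log2 fold change 0.61, SE 0.06; edgeR adjusted p = 3.24e-07). XIAP was 1.35-fold higher (log2 fold change 0.43, SE 0.09; edgeR adjusted p = 5.70e-04).

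MCL1 was 1.11-fold higher in AsPC-1 controls (log2 fold change 0.15, SE 0.06; edgeR adjusted p = 0.0287). That edgeR call was lost without AsPC-1 control replicate 1 (adjusted p = 0.189), its replicate 2 (adjusted p = 0.102), PANC-1 control replicate 1 (adjusted p = 0.0927) or PANC-1 control replicate 3 (adjusted p = 0.0957). BID was lower in AsPC-1 controls, with 33.7 and 32.2 CPM against 46.0, 39.9 and 41.2 CPM in PANC-1 controls (fold 0.790; edgeR adjusted p = 0.00297). DIABLO was the member furthest below PANC-1, with 2.05 and 1.51 CPM in AsPC-1 controls against 5.22, 4.55 and 4.99 CPM in PANC-1 controls (fold 0.371; log2 fold change -1.43, SE 0.23; edgeR adjusted p = 4.01e-05). BAX, BAK1 and CASP9 were not called, with log2 fold changes of -0.04 (95% interval -0.21 to 0.12), 0.15 (-0.03 to 0.32) and -0.25 (-0.53 to 0.04). Without PANC-1 control replicate 2 the BAK1 value was 0.08, and without AsPC-1 control replicate 1 that of CASP9 was -0.15.

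**Figure D3:**
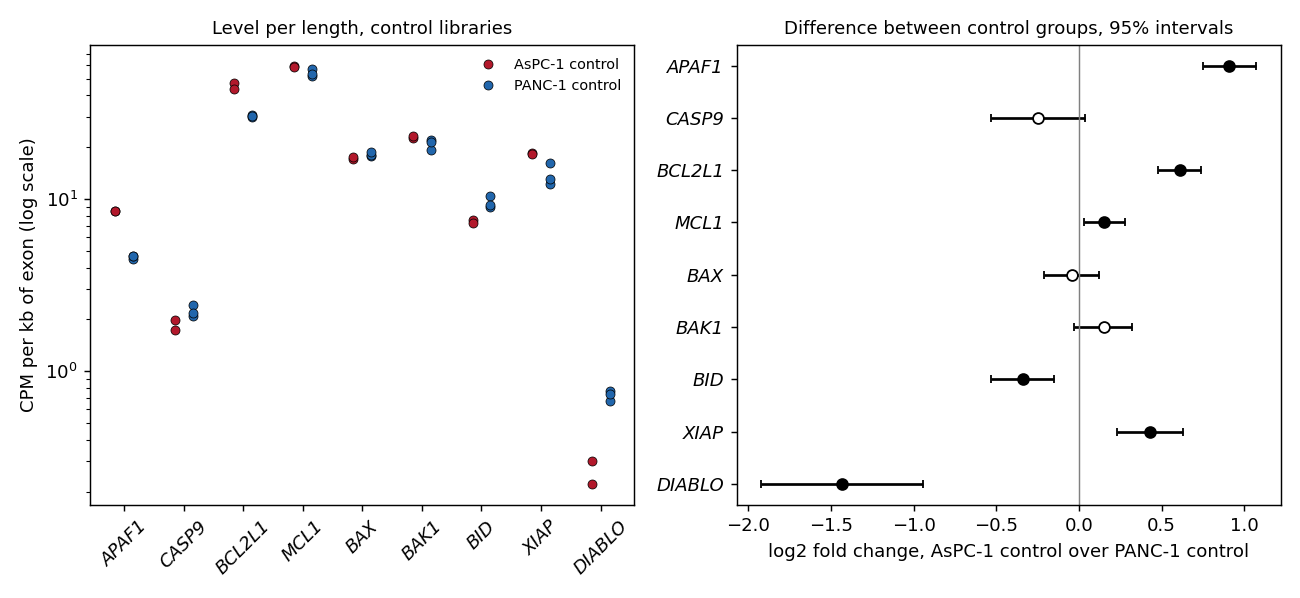
Left, level per length of the 9 genes in the control libraries (CPM per kb of annotated exon, log axis; each point is a library). Right, log2 fold change of AsPC-1 control over PANC-1 control with 95% intervals, filled where the adjusted p was under 0.05; APAF1, BCL2L1, XIAP and MCL1 lie to the right of 0, and DIABLO and BID to the left.

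Levels of different genes were compared per length, as CPM per kb of annotated exon. MCL1, BCL2L1 and BAK1 came first in that order in all 4 groups, at 60.6, 43.7 and 18.8 CPM per kb in AsPC-1 with siRNA and 59.0, 45.5 and 22.9 CPM per kb in AsPC-1 controls. In PANC-1 they stood at 54.4, 32.7 and 25.2 CPM per kb with siRNA and 54.0, 30.3 and 21.0 CPM per kb in controls. Of the 2 inhibitors MCL1 thus had the higher value per length, and of the 2 pore formers BAK1. ABALON exons cover 43% of BCL2L1 exon bases, and how reads on shared exons were counted is not stated. The order of MCL1 and BCL2L1 is therefore uncertain. APAF1 changed place in the order: it stood seventh in AsPC-1 with siRNA, at 3.56 ± 0.385 CPM per kb (SD, n = 3), below BID at 7.47, and sixth in AsPC-1 controls, at 8.53 ± 0.0549 CPM per kb (n = 2), above BID at 7.42. In PANC-1, APAF1 stood at 2.56 ± 0.241 CPM per kb with siRNA and 4.62 ± 0.0992 CPM per kb in controls (n = 3 each), below BID in both. CASP9 followed at 1.86 to 2.28 CPM per kb and DIABLO came last at 0.262 to 0.743 CPM per kb in group means. The place of DIABLO is uncertain, since its row shares exon bases with other rows, as given above. Neighbours in the order did not overlap between libraries of a group, except APAF1 and CASP9 in PANC-1 with siRNA, where APAF1 had 2.28 to 2.71 and CASP9 2.16 to 2.46 CPM per kb.

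The wider pathway was read from a list of 49 genes in 8 groups, chosen with earlier results of these data known and not by how its genes moved. In AsPC-1, 45 passed the filter and the edgeR test called 7 higher and 9 lower, 35.6% of them, against 32.9% of all genes tested, with a median log2 fold change of -0.01. In PANC-1, 44 passed and 1 was called higher and 3 lower, 9.09% against 9.08%, with a median of 0.02. The difference between lines was called for 2 of 46, 4.35% against 4.36%. These shares were near those of all genes. The PANC-1 count of 4 was 0 when siRNA replicate 1 was left out, 1 when siRNA replicate 2 was, and 2 when it was siRNA replicate 3, control replicate 1 or control replicate 3. The count of 2 for the difference was 0 without either AsPC-1 control, AsPC-1 siRNA replicate 1 or 3, or PANC-1 siRNA replicate 1 or 3, and 1 without PANC-1 control replicate 3 or siRNA replicate 2.

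Genes called in both lines were BCL2L11, BCL2L12 and CYCS. CYCS encodes cytochrome c, the ligand that APAF1 binds. It averaged 144 ± 3.90 CPM with siRNA and 196 ± 4.65 CPM in controls of AsPC-1 (SD, n = 3 and 2; log2 fold change -0.45 with an SE of 0.04; edgeR adjusted p = 3.44e-09). In PANC-1 it averaged 211 ± 19.2 CPM with siRNA and 264 ± 26.3 CPM in controls (n = 3 each; log2 fold change -0.32 with an SE of 0.07; edgeR adjusted p = 0.0151). The PANC-1 call was lost without siRNA replicate 1 (-0.32, adjusted p = 0.0814) or siRNA replicate 2 (-0.27, adjusted p = 0.0574). CYCS has many processed pseudogenes, and VDAC1, named next, has some, so their counts are uncertain.

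BCL2L11 encodes BIM, a BH3-only activator of BAX and BAK1. It averaged 42.6 ± 2.63 CPM with siRNA and 32.3 ± 2.25 CPM in controls of AsPC-1 (SD, n = 3 and 2; log2 fold change 0.39; edgeR adjusted p = 1.96e-04). In PANC-1 it averaged 21.1 ± 0.800 CPM with siRNA and 17.0 ± 1.16 CPM in controls (n = 3 each; log2 fold change 0.31; edgeR adjusted p = 0.0419). The PANC-1 call was lost without control replicate 1 (0.25, adjusted p = 0.137), control replicate 3 (0.34, adjusted p = 0.0668), siRNA replicate 1 (0.28, adjusted p = 0.184), siRNA replicate 2 (0.34, adjusted p = 0.0696) or siRNA replicate 3 (0.31, adjusted p = 0.103), with DESeq2 (adjusted p = 0.0841) and, at the threshold, without the low-count filter. BCL2L12, a BCL2 family protein, averaged 27.2 ± 0.755 CPM with siRNA and 34.1 ± 0.204 CPM in controls of AsPC-1 (SD, n = 3 and 2; log2 fold change -0.34; edgeR adjusted p = 6.98e-04), and 35.0 ± 1.31 CPM with siRNA and 42.9 ± 0.596 CPM in controls of PANC-1 (n = 3 each; log2 fold change -0.30; edgeR adjusted p = 0.0123). Its PANC-1 call was lost without siRNA replicate 1 (-0.28, adjusted p = 0.0812) or siRNA replicate 3 (-0.28, adjusted p = 0.0549).

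Other genes passed the threshold in a single line. Of those named in this paragraph, the difference between lines was called for PARP1 only. In AsPC-1 the outer membrane channel VDAC1 rose 1.17-fold, the DNA-break sensor and caspase substrate PARP1 1.17-fold, and the death receptor TNFRSF10A, which binds TRAIL, 1.30-fold (edgeR adjusted p = 3.73e-06, 1.57e-04 and 2.92e-04). BIRC3, an inhibitor-of-apoptosis protein, fell to 75.1% of control and DFFB, the nuclease that cuts DNA between nucleosomes in dying cells, to 60.2% (edgeR adjusted p = 2.16e-05 and 2.79e-04). By role, the AsPC-1 counts were 1 higher and 3 lower of 6 genes listed around the apoptosome, not split by whether they promote or block it. Those 6 were CYCS, HSPA1A, HSP90AA1, APIP, NOL3 and the tubulin gene TUBA1A, which was not called in AsPC-1. Of 5 genes of the execution step 2 were higher and 1 lower, the lower one being the nuclease DFFB. There were 2 higher and 1 lower of 11 BH3-only and other BCL2 family genes, and 1 higher and 1 lower of 7 genes of the death receptor arm. Of the 6 caspases, 4 inhibitor-of-apoptosis genes and 3 released proteins 1 each was lower, and of the 3 outer membrane channels 1 was higher. Over all tested genes 16.6% were called higher and 16.3% lower, and groups this small are given as counts only. In PANC-1, BIRC5, which encodes survivin, was called lower at 89.3% of control (log2 fold change -0.16; edgeR adjusted p = 0.0441). Its AsPC-1 value was similar, at -0.13, and was not called (edgeR adjusted p = 0.0512). The difference between lines was 0.05 (edgeR interaction adjusted p = 0.829). The PANC-1 call was lost without control replicate 1 (adjusted p = 0.0982), control replicate 3 (adjusted p = 0.110), siRNA replicate 1 (adjusted p = 0.176), siRNA replicate 2 (adjusted p = 0.0882) or siRNA replicate 3 (adjusted p = 0.156), with RLE scaling (adjusted p = 0.0502), without the low-count filter (adjusted p = 0.0696) and with DESeq2 (adjusted p = 0.0555).

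Of the 49 genes, 7 held CTCATGT in a 3′ UTR and 5 of those were tested in each line. In AsPC-1, 2 of the 5 were called lower, BCL2L12 and DFFB, and 1 higher, ROCK1, a kinase that drives membrane blebbing once caspases cut it. In PANC-1, 2 were called lower, BCL2L12 and BIRC5. Of all tested genes with the word, 35.2% were called lower in AsPC-1 and 18.6% in PANC-1, and with 5 genes no departure from these shares can be read. The BCL2L12 site is in all 10 of its coding transcripts with a 3′ UTR. CYCS and BCL2L11 held the core but not the full word.

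**Figure D4:**
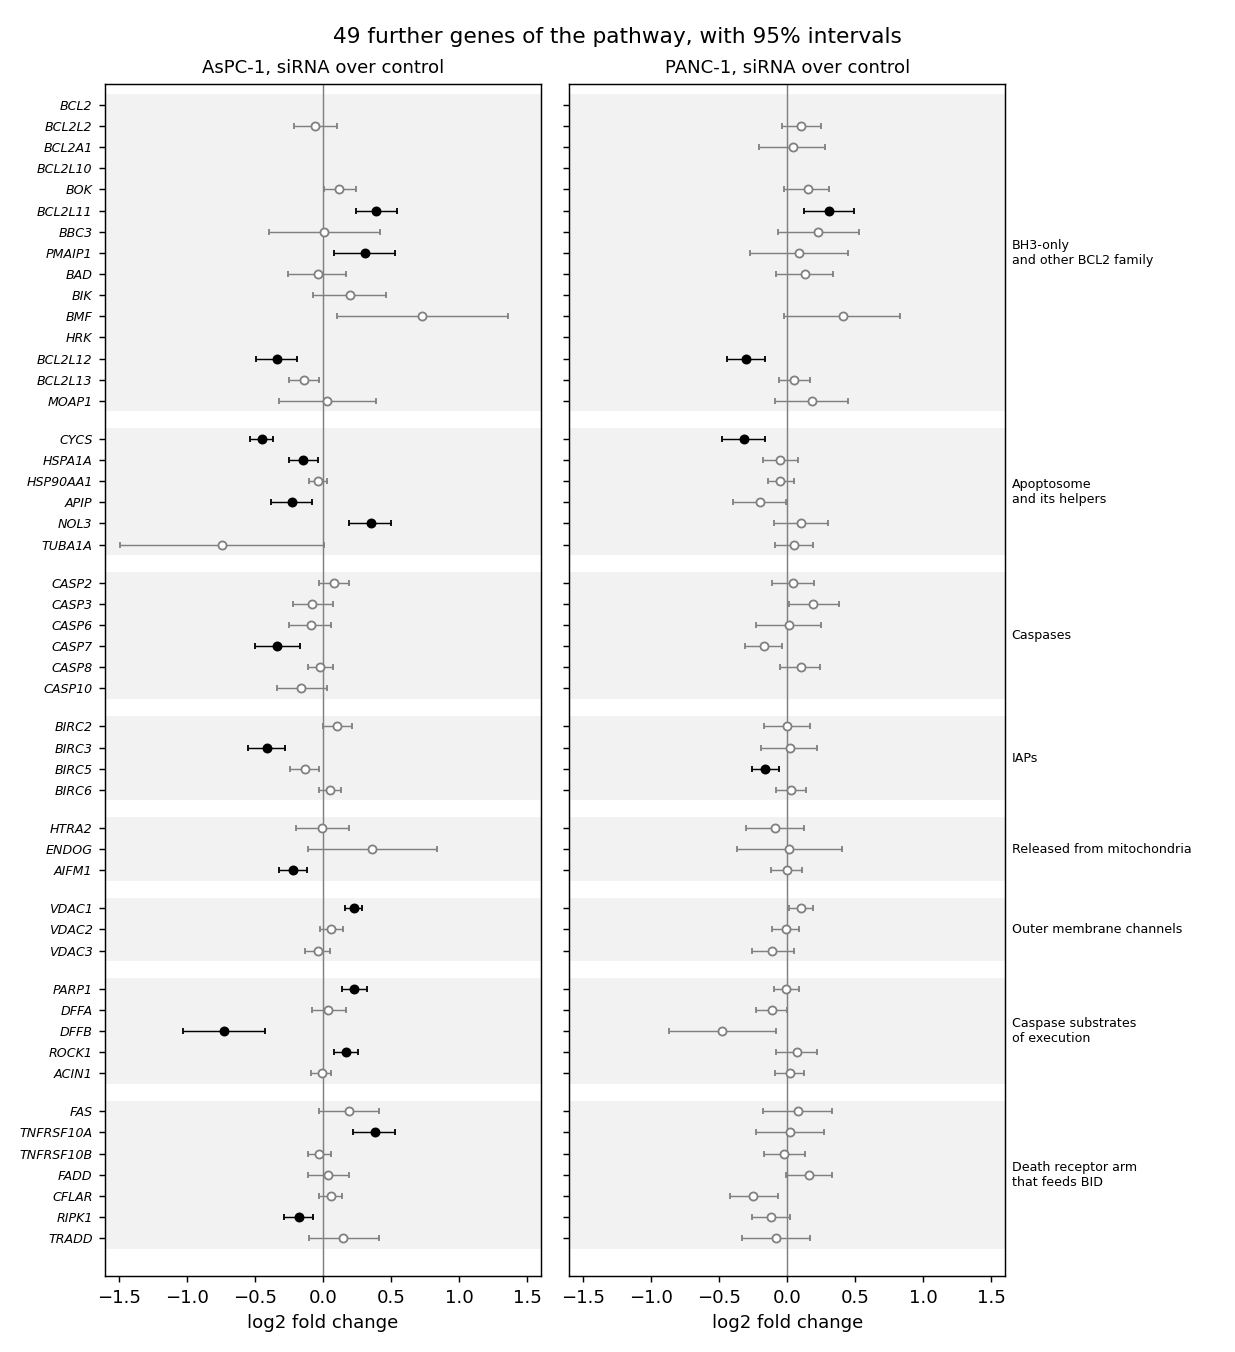
Log2 fold change of MYEOV siRNA over control for 49 further pathway genes in AsPC-1 (left) and PANC-1 (right), grouped by role, with 95% intervals; filled points passed an adjusted p of 0.05 and rows without a point did not pass the low-count filter. BCL2L11 is filled on the right of 0 and BCL2L12 and CYCS on the left in both panels.

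Between control cells the share of the wider list that was called was near that of all genes: 21 of 46 were called higher and 16 lower in AsPC-1, 80.4% against 76.4%, with a median log2 fold change of 0.14. In the death receptor arm that feeds BID, 6 of 7 were called, all higher in AsPC-1. Over all tested genes 36.1% were called higher and 40.3% lower, and groups this small are given as counts only. The counts were 3 higher and 4 lower of 12 BCL2 family genes, and 2 higher and 3 lower of 6 around the apoptosome, with the tubulin gene TUBA1A among those 3. Of 5 genes of the execution step 2 were higher and 2 lower, of 3 released proteins 1 and 2, and of 3 channels 2 and 1. CFLAR, the decoy that restrains caspase-8, averaged 161 ± 6.18 CPM in AsPC-1 controls (SD, n = 2) and 32.6 ± 2.92 CPM in PANC-1 controls (n = 3), a log2 fold change of 2.33 (edgeR adjusted p = 4.86e-13). TNFRSF10B, a TRAIL receptor, averaged 170.1 ± 4.77 CPM in AsPC-1 controls and 52.7 ± 3.56 CPM in PANC-1 controls, a log2 fold change of 1.71 (edgeR adjusted p = 5.97e-12). Of 6 caspases, 4 were higher and 1 lower in AsPC-1; the initiator CASP10 averaged 25.0 ± 0.190 CPM in AsPC-1 controls and 0.547 ± 0.224 CPM in PANC-1 controls (edgeR adjusted p = 1.09e-12). The channel gene VDAC3 was 2.82-fold higher in AsPC-1 (edgeR adjusted p = 1.30e-11).

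Of the 4 inhibitor-of-apoptosis genes, 3 were lower and 1 higher in AsPC-1 controls, whereas XIAP, of the same family, was higher. BIRC5 averaged 87.2 ± 0.738 CPM in AsPC-1 controls (SD, n = 2) and 202 ± 2.65 CPM in PANC-1 controls (n = 3; log2 fold change -1.19; edgeR adjusted p = 8.98e-11). DFFA, which holds the nuclease DFFB in check, was at 40.5% of its PANC-1 level (edgeR adjusted p = 1.45e-10). BCL2A1, an inhibitory BCL2 relative, had 0 counts in both AsPC-1 controls and 8.85 ± 0.575 CPM in PANC-1 controls, which is at least 35.9-fold lower in AsPC-1 against a floor of 3 counts per library. TUBA1A, a tubulin with near-identical relatives among which reads may be split, was lower in AsPC-1 controls (log2 fold change -3.76, edgeR adjusted p = 3.30e-10), and the value was -4.79 without the first AsPC-1 control and -3.22 without the second.

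Over the 11 libraries, 9723 genes whose mean log2 CPM reached 3 were ranked by Pearson correlation of log2 CPM with APAF1. The libraries fall into 4 groups, so the coefficient mostly follows the group means and is given as a description. The 5 nearest genes were ITGB1 (r = 0.992), POT1 (0.990), FAM107B (0.989), HNRNPA1 (0.987) and STARD7 (0.983). With each line centred on its own mean, r was 0.983 to 0.991. ITGB1, an integrin subunit, averaged 1283 CPM with siRNA and 2724 CPM in controls of AsPC-1, and 1018 CPM with siRNA and 1593 CPM in controls of PANC-1. The log2 fold changes of FAM107B were -1.49 in AsPC-1 and -1.10 in PANC-1, and those of POT1, a telomere-binding protein, -0.47 and -0.37. HNRNPA1, an RNA-binding protein with many pseudogenes whose counts are therefore uncertain, had -0.78 and -0.64, and STARD7, a lipid transfer protein, -0.85 and -0.66. All 5 of these genes held CTCATGT in an annotated 3′ UTR, as did 28% of the genes called lower in AsPC-1 and 48.1% of those called lower in PANC-1. The genes were ranked for following APAF1 and the word was taken up from earlier results of the same libraries, so the match is no independent evidence. Of the other members XIAP had the highest r with APAF1 (0.82), then BAX (0.61), BCL2L1 (0.42) and MCL1 (0.28). The r was -0.15 for BAK1, -0.37 for BID, -0.62 for DIABLO and -0.64 for CASP9. These member values were not centred within lines, so they mix the difference between lines with the change under siRNA.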

How the data were processed

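Poly(A) RNA was sequenced as paired reads of 150 bases, per the labels' protocols. Deposited values are the authors' raw counts per gene, as whole numbers with no normalization, in 1 table per library. The submitters' processing notes name HISAT2, HTSeq and hg19 without versions, and the strand setting and overlap mode of counting are not given in the sources used here. All 58735 identifiers occur in GENCODE 29 (Ensembl 94, GRCh38), the source of names, positions, exon lengths and 3′ UTRs, so positions are of that annotation and not of hg19. The tables held 0 rows without a gene.

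Counts were tested with edgeR 4.0.16 in R 4.3.3 (filterByExpr with a minimum count of 10, TMM, glmQLFit, glmQLFTest, two-sided, Benjamini-Hochberg over all genes tested, threshold 0.05). Each line, and the controls, were fitted alone, and the difference between lines over all 11 libraries. SE is the log2 fold change divided by the root of F, and intervals are 95%. Printed CPM use TMM factors over all 11 libraries, and levels per length divide by the union of exons. A prior count of 2 was used for correlations only. The fits gave a biological coefficient of variation of 2.77% (AsPC-1) and 6.08% (PANC-1). No 2 libraries of a group agreed within counting noise (chi-square per degree of freedom 1.67 to 5.97). The fits were also run on simulated counts, drawn independently for each library. Such counts cannot show whether the spread between the real libraries is technical.

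The members and lists were chosen with earlier results of these data known. Named were all 9 members, MYEOV, the genes of the wider list with the 4 smallest p per direction and comparison, the 5 genes most like APAF1 and the cell type markers; ROCK1 and group counts were chosen after their values were seen. Each result was recomputed with RLE scaling, without the filter, at 5 CPM or more, by DESeq2 1.42.0, in a fit of all groups together, with a replicate block and without each library in turn. Figures were drawn with matplotlib 3.10.9 in Python 3.11.15.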

Additional observations from a re-analysis of the deposited data

Results flagged for a closer look

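Responses that differed between the lines by the edgeR interaction test are listed here with their values. BAK1 differed by -0.55 on the log2 scale, AsPC-1 minus PANC-1 (SE 0.10, adjusted p = 0.00188), with falls in all 3 AsPC-1 siRNA libraries and rises in all 3 PANC-1 siRNA libraries relative to every control of the line. The BAK1 call was lost with a replicate block. MYEOV differed by -0.59 (SE 0.10, adjusted p = 0.00153), being lower with siRNA in both lines and more so in AsPC-1. PARP1 differed by 0.25 (SE 0.07, adjusted p = 0.0334), with log2 fold changes of 0.23 in AsPC-1 and -0.01 in PANC-1. CFLAR differed by 0.32 (SE 0.09, adjusted p = 0.0453), with 0.06 in AsPC-1 (adjusted p = 0.305) and -0.25 in PANC-1 (adjusted p = 0.0719), neither called. PARP1 lost its call without AsPC-1 control replicate 1 or 2, AsPC-1 siRNA replicate 1 or 3, PANC-1 control replicate 3 or any PANC-1 siRNA replicate (0.22 to 0.26, adjusted p = 0.0657 to 0.164). CFLAR lost it without any AsPC-1 library, PANC-1 control replicate 2 or any PANC-1 siRNA replicate (0.22 to 0.36, adjusted p = 0.0543 to 0.231).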

How the results depend on the processing

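In AsPC-1 the calls of APAF1, XIAP and BAK1 held under all 11 alternatives; genes called ranged from 3164 to 4723. In PANC-1 APAF1 was called under every alternative (-0.90 to -0.78). Without single libraries PANC-1 genes called ranged from 538 to 1712, members called from 1 to 2 and wider-list genes called from 0 to 4. The wider-list count was 2 with no low-count filter and 2 with DESeq2, and with no filter XIAP was also called (-0.22, edgeR adjusted p = 0.0184), making 3 members. For the difference between lines, genes called ranged from 305 to 1056, members from 1 to 3 and wider-list genes from 0 to 2 without single libraries. Members called were 2 with RLE scaling, no filter, the 5 CPM filter or DESeq2, adding APAF1; wider-list genes called were 0 with RLE and 4 with no filter. Between controls every count stayed within 1.5 times, and MCL1 lost its call with no filter (0.13, edgeR adjusted p = 0.0692). The cause of these changes was not tested.

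Replicate numbers did not pair the libraries (correlation of deviations of same-numbered libraries -0.09 to -0.02; no library was closest to its own number in PANC-1). With the number as a replicate block PANC-1 calls were 628 genes, 1 member and 0 of the wider list, the difference calls were 241 genes, 0 members and 0 of the wider list, and the MCL1 difference between controls was not called (adjusted p = 0.114).

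Changes near 0 turned sign. AsPC-1 BID was 0.00 with no filter, 0.01 in 1 fit over all groups and -0.05 to 0.05 without single libraries. In PANC-1, without single libraries, CASP9 ran from -0.03 to 0.09, DIABLO from -0.07 to 0.09, MCL1 from -0.02 to 0.05 and BID from -0.09 to 0.01. The difference between lines ran from 0.00 to 0.11 for BID and from -0.04 to 0.06 for MCL1. With 2 AsPC-1 controls, leaving 1 out leaves a lone library assumed to vary like the others. DIABLO had 17 to 80 counts per library, few enough to widen its intervals.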
